A study of Homo sapiens with 6 samples.

Results

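OVCAR3 cells were treated for 6 h with THZ531, which blocks the transcriptional kinases CDK12 and CDK13 by binding to them covalently, and transcripts of the splicing machinery were measured. With the deposited scaling, 9 of 76 such genes (11.8%) changed by at least 1.5-fold at an unadjusted p up to 0.05 (limma), against 39.5% of all loci tested and 25.5% of those with a mean value of at least 1000. The 9 were 3 higher (3.95%, against 15.7% of all loci) and 6 lower (7.89%, against 23.9%). With all libraries set to the same total, these counts became 1 (1.32%, against 9.38%) and 11 (14.5%, against 32%). With the libraries set to the transcript RPL34 they became 0 (against 6.14%) and 17 (22.4%, against 42.8%). The genes described here are those named HNRNP, SF3A or SF3B with a number, U2AF, PRPF with a number, SNRPA to SNRPG, SNRNP with a number and LSM with a number. The kinase gene PRPF4B and 5 pseudogenes were left out of the 88 names that matched these prefixes. The 82 remaining members were found among 47577 loci, and 76 of them reached the minimum, a normalized value of 10 or more in 3 or more libraries, which 17568 loci reached in all. OVCAR3 is a cell line of human high-grade serous ovarian adenocarcinoma. PolyA RNA was sequenced from 3 cultures exposed to the solvent DMSO and from 3 cultures exposed to 200 nM THZ531, both for 6 h. The titles of the samples give THZ531, but their treatment protocol gives THZ1, a related inhibitor, at an equal dose, and the libraries were assigned by title. The 3 libraries of each group are called biological repeats of 1 cell line, so p-values measure the spread between such cultures.

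Splicing is carried out by the spliceosome, which assembles anew on every intron from small nuclear ribonucleoproteins (snRNPs) and helper proteins. The U1 snRNP pairs with the 5′ splice site, U2AF and the U2 snRNP recognize the 3′ splice site and the branch point, and the U4/U6.U5 tri-snRNP then joins to form the active complex. Heterogeneous nuclear ribonucleoproteins (hnRNPs) coat the nascent transcript and steer the choice of splice sites, and several of them regulate the splicing of their own messages.

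To show where the called members begin, the 100 bases upstream of the transcription start are given for 5 of them, chosen because the RefSeq start is the first base of the locus in the deposited table. A called gene is one that differed at least 1.5-fold with an unadjusted p of at most 0.05 in limma. The sequences are those of RefSeq on GRCh38.p14, written 5′ to 3′ on the strand of the gene. Capitals mark 3 kinds of motif on either strand, none of which contains another. The first is GGGCGG, known as the GC box. Another reads CCAAT and is named after its letters. The last is the core recognized by ETS factors, which reads CCGGAAG. The windows lie at chr4:82430463-82430562 (minus strand) for HNRNPDL, chr1:108692210-108692309 (plus) for PRPF38B, chr12:49623461-49623560 (plus) for PRPF40B, chr1:244864544-244864643 (minus) for HNRNPU and chr10:13586865-13586964 (plus) for PRPF18. The former 3 genes were lower and the latter 2 higher in THZ531.
HNRNPDL: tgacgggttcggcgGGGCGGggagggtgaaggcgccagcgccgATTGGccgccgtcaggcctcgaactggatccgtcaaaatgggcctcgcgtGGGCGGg
PRPF38B: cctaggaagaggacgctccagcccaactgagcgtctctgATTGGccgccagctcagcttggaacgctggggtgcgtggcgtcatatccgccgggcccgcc
PRPF40B: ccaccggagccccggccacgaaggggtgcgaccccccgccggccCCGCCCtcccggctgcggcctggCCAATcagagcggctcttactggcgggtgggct
HNRNPU: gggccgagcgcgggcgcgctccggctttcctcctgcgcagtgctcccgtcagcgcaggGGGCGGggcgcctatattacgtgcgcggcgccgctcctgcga
PRPF18: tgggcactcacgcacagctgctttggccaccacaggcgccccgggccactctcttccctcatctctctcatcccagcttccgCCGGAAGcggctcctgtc

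RefSeq promoters were matched for 65 of the 76 members. Over the 250 bases upstream of the start, 46 members (70.8%) held a GC box, against 46.2% of the 27305 genes with a promoter. A CCAAT box was found in 36 members (55.4%, against 37% of genes) and an ETS core in 23 (35.4%, against 10.2% of genes). TATAAA was found in 4 members (6.15%, against 13% of genes). Among the called members, HNRNPDL, HNRNPU, LSM11, PRPF40B, SNRNP40, U2AF1 and U2AF2 held a GC box, and PRPF18 and U2AF2 an ETS core. HNRNPDL, PRPF38B, PRPF40B, SNRNP40 and HNRNPU held a CCAAT box, which in HNRNPU lies outside the 100 bases printed. The 27305 genes were not limited to the loci tested here, so the shares are not set against expressed genes alone. The median GC content of these windows was 62.4% for the members' promoters and 58% for all promoters. These matches describe letters in a window and not occupied sites.

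The libraries held between 53054048 and 70986130 reads on genes, and the members took 1.59% ± 0.04 (SD, n = 3) of all normalized reads in DMSO and 1.57% ± 0.01 (SD, n = 3) in THZ531. The members' summed value was 855658, 895557 and 918063 in the DMSO libraries and 1052317, 1024517 and 1035704 in the THZ531 libraries. The sum was thus higher in every treated library, while the shares of the library overlapped. All 10 Mullerian and epithelial markers examined were expressed. Their summed value ranged from 450616 to 462497 in DMSO and from 574230 to 586762 in THZ531, with PAX8 and MUC16 lower in every treated library. Fibroblast genes were detected for 2 of 5 markers, COL1A1 and COL3A1, with sums of 1631 to 1871 in DMSO and 3142 to 3446 in THZ531, whereas DCN and LUM were at or near 0. The 4 blood markers summed to 140 to 172 in DMSO and 138 to 158 in THZ531, with CD3E at 0. The 3 endothelial markers summed to 162 to 199 in DMSO and 213 to 299 in THZ531. Their part in the results below was not tested. In bulk RNA, fewer cells of a kind and less RNA per cell cannot be told apart.

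The comparison asks how CDK12/13 inhibition altered the transcripts of the splicing machinery itself. Of the 76 members, 9 were called. Among the 6862 loci with a mean value of at least 1000, 14.3% were called higher and 11.2% lower. The 3 called higher were PRPF18, HNRNPU and U2AF2 (3.95% of members, against 15.7% of all loci). The 6 called lower were HNRNPDL, U2AF1, PRPF38B, PRPF40B, SNRNP40 and LSM11 (7.89%, against 23.9%). At any fold, with a Benjamini-Hochberg adjusted p up to 0.05 (limma), 44 members were higher (57.9%, against 34.6% of all loci) and 16 lower (21.1%, against 34.1%), and the other 16 did not pass. Among the loci with a mean of at least 1000 these shares were 55.1% higher and 28% lower. The groups did not overlap for 44 members that were higher (57.9%, against 36% of all loci) and 15 that were lower (19.7%, against 35.7%). Of these shifts, 41 upward and 10 downward ones were smaller than 1.5-fold. In all, 28 members lay within 1.2-fold of DMSO, 33 were between 1.2-fold and 1.5-fold higher and 6 between 1.2-fold and 1.5-fold lower. The median log2 fold change was 0.22 over the members and -0.0071 over all loci tested.

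**Figure D1:**
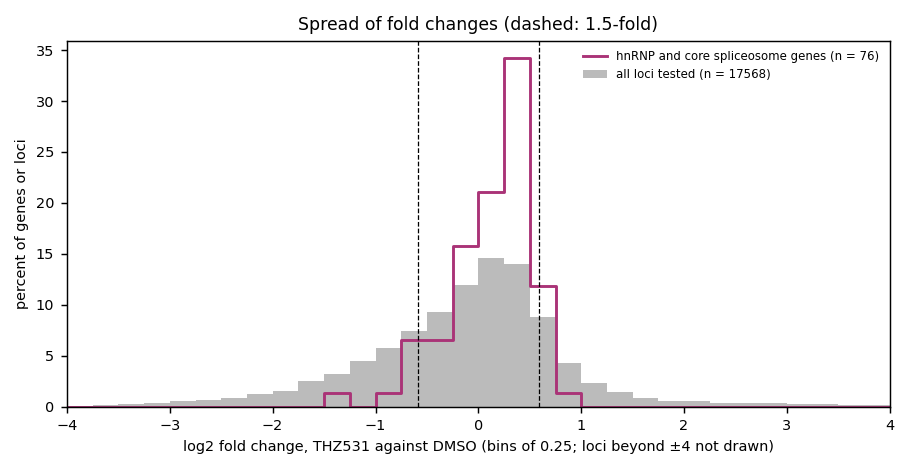
The log2 fold change of THZ531 against DMSO is on the horizontal axis and the percent of genes or loci per bin of 0.25 on the vertical axis, for the 76 members (line) and all 17568 loci tested (grey). The members form a narrow peak just above 0, with 67 of them uncalled, while the grey distribution reaches far past the dashed 1.5-fold lines on either side.

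These directions depend on the scaling of the libraries. The deposited scaling gave the treated libraries a larger total. With all libraries set to the same total, every log2 fold change shifted by -0.24, the members' median was -0.023 and that of all loci -0.25. The calls then numbered 1 higher (1.32%, against 9.38% of all loci) and 11 lower (14.5%, against 32%), and at any fold 26 members were higher (34.2%, against 21.9%) and 33 lower (43.4%, against 46.7%) by the adjusted p. RPL34, a ribosomal protein transcript used as the qPCR reference in the study, is 1 locus. Under the deposited scaling it had 12999 ± 1180 reads in DMSO and 18247 ± 86.8 in THZ531 (SD, n = 3). Its spread in DMSO enters every value scaled to it. With the libraries set to RPL34, the shift was -0.49 and the medians were -0.27 and -0.50. The calls were 0 higher (against 6.14%) and 17 lower (22.4%, against 42.8%). By the adjusted p, 1 member was then higher (1.32%, against 9.62%) and 44 lower (57.9%, against 58.2%). Since each scaling moves all loci by nearly the same amount, it leaves the distance between these medians as it was. Changes are given below under the deposited scaling, with the medians of the role groups also at the other scalings.

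**Figure D2:**
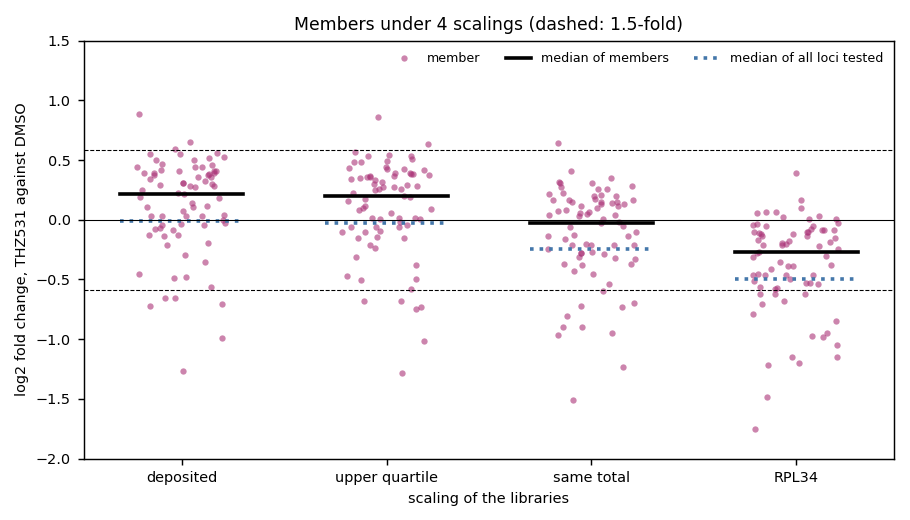
Each point is a member's log2 fold change of THZ531 against DMSO under the scaling named on the horizontal axis, with the members' median (black bar) and the median of all loci tested (dotted bar). The members' median falls from 0.22 under the deposited scaling to -0.27 with RPL34 as the median of all loci falls with it.

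The hnRNP A/B and D proteins are abundant RNA-binding proteins that often oppose the inclusion of exons, and this family held the member with the largest change. HNRNPDL, a relative of HNRNPD that binds AU-rich RNA, lies at chr4:82422565-82430462 on the minus strand and has 8 annotated exons. Its normalized reads were 14154, 14372 and 15573 in DMSO and 6296, 5871 and 6199 in THZ531. Every treated library was below every control library, at 0.42 of the DMSO level (log2 fold change -1.26, SE 0.04, n = 3 per group; limma, Benjamini-Hochberg adjusted p = 1.1e-12). Among all loci tested this decrease was not extreme, since 11.2% of them had a log2 fold change as low or lower. No other gene of the family was called. HNRNPA2B1, its highest member by reads, had 51488, 59601 and 62884 in DMSO and 56436, 53881 and 53677 in THZ531, and these ranges overlap (log2 fold change -0.08). The difference was -0.16 without DMSO replicate 1 and -0.020 without DMSO replicate 3. HNRNPA1, HNRNPA3 and HNRNPD also did not pass the adjusted threshold. HNRNPAB (0.39) and HNRNPA0 (0.38) rose and HNRNPA1L2 (-0.13) fell at an adjusted p up to 0.05 (limma). HNRNPA1L2 is an intronless copy of HNRNPA1, so that the division of reads between these genes is uncertain. The family's median log2 fold change was -0.08, and -0.32 and -0.57 under the same-total and RPL34 scalings.

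The remaining hnRNPs were mostly somewhat higher. HNRNPU, also known as SAF-A, binds RNA and chromatin and was the member with the most reads in THZ531. Its values were 48996, 49831 and 52168 in DMSO and 79528, 77979 and 80311 in THZ531, groups that do not overlap (1.58-fold, log2 fold change 0.66, SE 0.03; limma, Benjamini-Hochberg adjusted p = 7.4e-11). It lost its call with the same-total scaling (0.41) and with RPL34 (0.16). HNRNPUL2 was 0.44 higher on the log2 scale, whereas HNRNPUL1 stood at 0.04 and did not pass. The median of the 3 U genes was 0.44, 0.20 at the same total and -0.052 with RPL34. The 4 members of the F/H family bind G-rich RNA. All 4 rose at an adjusted p up to 0.05 under the deposited scaling, against 34.6% of all loci. Among the loci with a mean value of at least 1000 the share was 55.1%. The median of the F/H family was 0.25, which became 0.0045 at the same total and -0.25 with RPL34. HNRNPF rose by 0.47 and HNRNPH1, the member of this family with the most reads, from 46624 ± 3863 to 54018 ± 1262 (SD, n = 3; log2 fold change 0.22). HNRNPM (0.55), HNRNPR (0.46), HNRNPK (0.41) and HNRNPL (0.25) rose likewise, and HNRNPLL (-0.04) did not pass. The median of these 5 was 0.41, 0.16 at the same total and -0.086 with RPL34. HNRNPK, which binds C-rich RNA, went from 36580 ± 796 to 48493 ± 607 normalized reads. HNRNPC, a core packaging protein that binds U-tracts, was at 33080 ± 1838 in DMSO and 33808 ± 936 in THZ531, with overlapping groups. Per kilobase of annotated exon, HNRNPF had the highest value of the 75 members with an annotated structure, at 10595 normalized reads in DMSO and 14628 in THZ531. It was followed in DMSO by SF3B6 (10511), SNRPC (9226) and PRPF31 (9132). Annotated exons include retained introns and outlying exons, so these levels can be too low for some genes. For HNRNPU the annotated exons cover 22512 bases, more than the 14247 bases of its locus. The ranking, its first place included, is therefore uncertain, and U2AF1L5 has no annotated length and is not ranked.

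**Figure D3:**
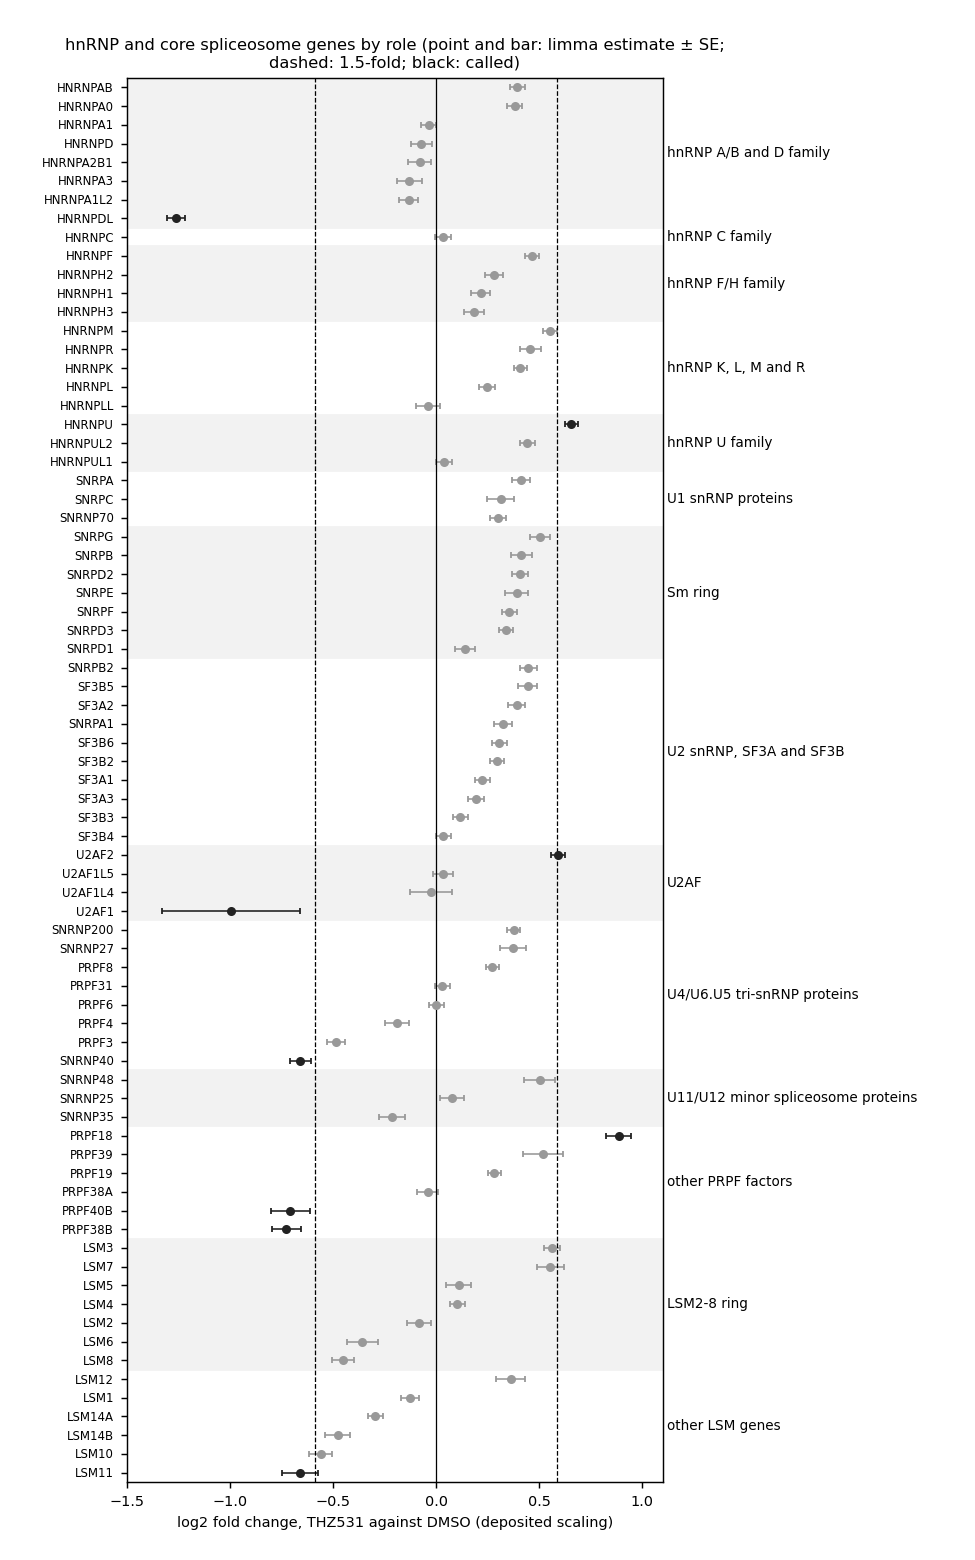
Points give the limma log2 fold change of THZ531 against DMSO with its SE (bars, n = 3 per group) for 75 of the 76 members, arranged by role; black points are called and dashed lines mark 1.5-fold. Under the deposited scaling the points of the Sm ring lie wholly right of 0, between 0.14 and 0.50. So do those of the F/H family, the hnRNP U family, the U1 proteins and the U2, SF3A and SF3B group. Of the 6 other LSM genes, 5 lie left of 0.

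The Sm proteins form the heptameric ring around the RNA of the U1, U2, U4 and U5 snRNPs. All 7 of their genes rose at an adjusted p up to 0.05 (limma), against 34.6% of all loci. Among the loci with a mean value of at least 1000 the share was 55.1%. None of the 7 Sm genes rose by 1.5-fold. Their log2 fold changes ran from 0.14 (SNRPD1) to 0.50 (SNRPG), with a median of 0.39 that became 0.15 at the same total and -0.10 with RPL34. At the same total SNRPD1 stood at -0.10 and the other 6 between 0.097 and 0.26. SNRPD3, the Sm gene with the most reads, had 24682, 25634 and 25934 normalized reads in DMSO and 32884, 31742 and 31852 in THZ531, which do not overlap. SNRPE shares its strand and part of its span with ZC3H11A, which fell (log2 fold change -0.63), so its count is uncertain. The 3 proteins specific to U1 rose as well, SNRPA by 0.41, SNRPC by 0.31 and SNRNP70 by 0.30 on the log2 scale. SNRNP70, which holds the U1 RNA, went from 14762 ± 775 to 18142 ± 150 normalized reads. The U1 median was 0.07 at the same total and -0.18 with RPL34.

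The U2 snRNP and its SF3A and SF3B complexes bind the branch point. Of their 10 measured genes, 9 rose at an adjusted p up to 0.05 and SF3B4 (0.03) did not pass. By that measure 34.6% of all loci rose, and 55.1% of those with a mean value of at least 1000. The median log2 fold change of the 10 genes was 0.30 (0.06 at the same total, -0.19 with RPL34). SF3B2, the highest by reads, had 20257, 20705 and 21234 in DMSO and 25661, 24823 and 25742 in THZ531. SF3B1, the largest SF3B subunit and a gene mutated in several cancers, is listed at 0 or 1 read in all 6 libraries. That value cannot be read as the level of the gene, because HSPD1, a mitochondrial chaperonin gene that every cell uses and that lies close by on chromosome 2, is listed at 0 in all 6 libraries, while COQ10B between them holds 1431 to 2267 reads. ANKRD44, on the other side of SF3B1, is listed at 0 to 6 reads. The cause was not tested, and SF3B1 is not analysed here. The other members under the minimum were SNRPF-DT, HNRNPCL1, HNRNPCL2, HNRNPCL3 and HNRNPCL4, with at most 2 reads in any library.

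U2AF consists of a large subunit, U2AF2, which reads the polypyrimidine tract, and a small subunit, U2AF1, which reads the AG at the end of the intron. U2AF2 had 15669, 15518 and 15557 normalized reads in DMSO and 23980, 22928 and 23456 in THZ531 (log2 fold change 0.59, SE 0.03; limma, Benjamini-Hochberg adjusted p = 2.2e-10). The groups are far apart, but at 1.51-fold the gene sits on the threshold. It lost the call under the same-total (0.35), upper-quartile (0.57) and RPL34 (0.10) scalings, in edgeR (0.57) and without THZ531 replicate 1 (0.57). LSM3 lay just under the threshold, at 1.48-fold. The median of the 4 U2AF genes was 0.0037, -0.24 at the same total and -0.49 with RPL34. The small subunit is listed at 2 loci of chromosome 21, U2AF1 at chr21:43092956-43107578 and U2AF1L5 at chr21:6484623-6499248, whose sequences in hg38 are 99.75% identical (37 differences in alignment over 14626 bases). U2AF1 had 1061, 969 and 511 normalized reads in DMSO and 212, 399 and 786 in THZ531. It was called lower (log2 fold change -0.99, SE 0.33; limma, Benjamini-Hochberg adjusted p = 0.015), although its groups overlap. DESeq2 did not call it (-0.86), nor did limma without THZ531 replicate 1 (-0.53). U2AF1L5 held most of the reads, 16764, 18505 and 19634 in DMSO and 19427, 18251 and 18328 in THZ531. Added together, the copies gave 19148 ± 1194 in DMSO and 19134 ± 495 in THZ531 (SD, n = 3; limma, Benjamini-Hochberg adjusted p = 0.99). The share placed on U2AF1 was 5.95%, 4.97% and 2.54% in DMSO and 1.08%, 2.14% and 4.11% in THZ531. The sum thus showed no difference beyond its spread, while the division between the copies varied within each group.

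**Figure D4:**
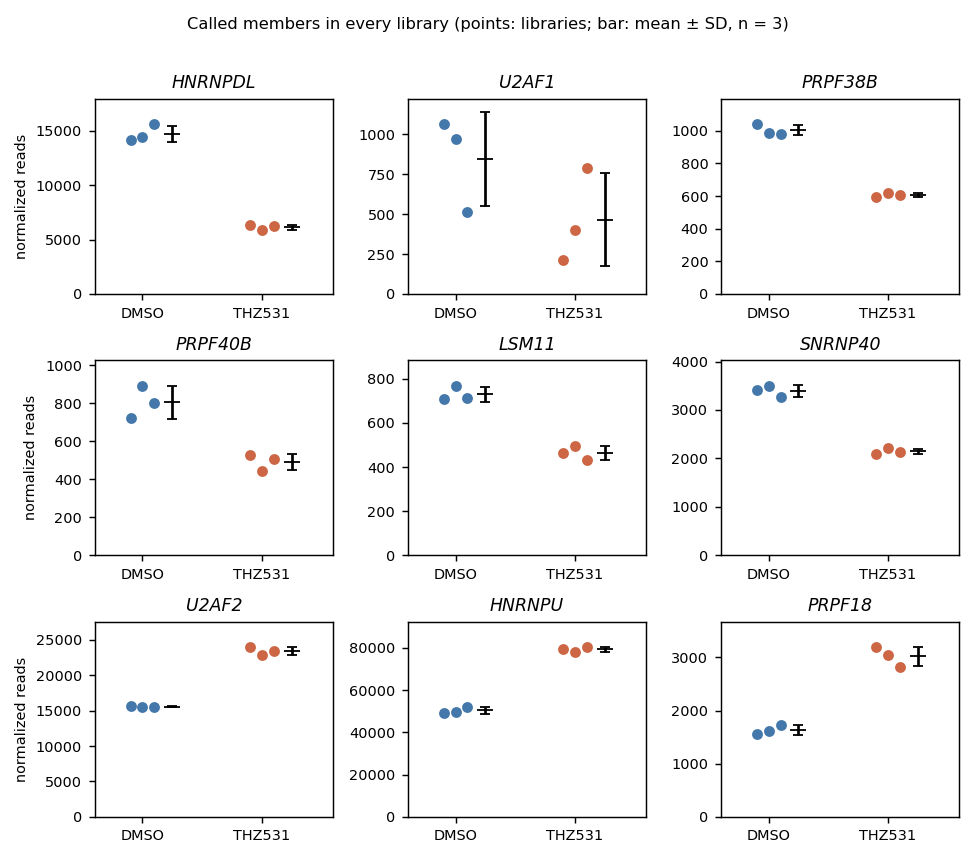
Normalized reads of the 9 called members in every library, with the mean ± SD of each group (n = 3); every vertical axis starts at 0. The groups are separate for all but U2AF1, where DMSO runs from 511 to 1061 and THZ531 from 212 to 786.

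The U4/U6.U5 tri-snRNP brings the catalytic core, and its genes moved in opposite directions under the deposited scaling. SNRNP40, a WD-repeat protein of U5, had 3404, 3499 and 3261 normalized reads in DMSO and 2096, 2209 and 2137 in THZ531, with no overlap (log2 fold change -0.66, SE 0.05; limma, Benjamini-Hochberg adjusted p = 6.0e-09). PRPF3 (-0.49) and PRPF4 (-0.19), partners in the U4/U6 particle, fell at an adjusted p up to 0.05 without reaching 1.5-fold. SNRNP200 (0.38), the helicase that unwinds U4 from U6, SNRNP27 (0.37) and PRPF8 (0.27), the scaffold of the catalytic centre, rose. With RPL34 they stood at -0.12, -0.12 and -0.22. PRPF6 (0.00) and PRPF31 (0.03) did not pass, and PRPF31, the highest of the set by reads, was at 24410 ± 757 in DMSO and 24935 ± 636 in THZ531. Within a library, the ratio of SNRNP200 to SNRNP40, which no scaling can alter, went from 3.36 ± 0.09 to 6.88 ± 0.15 (SD, n = 3). The tri-snRNP median was 0.016, -0.23 at the same total and -0.48 with RPL34. Of the proteins of the minor spliceosome, SNRNP48 rose (0.50), SNRNP35 fell (-0.21) and SNRNP25 did not pass (1385 ± 53.4 in DMSO, 1461 ± 25.1 in THZ531). Their median of 0.078 became -0.16 and -0.42 at those scalings. Part of SNRNP35 is overlapped on the opposite strand by RILPL1, which fell from 289 ± 4.86 to 36.3 ± 3.14 reads (log2 fold change -2.96). Its effect on the SNRNP35 count was not tested.

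Several PRPF genes act at single steps of the cycle, and these included called genes in each direction. PRPF18, needed for the second step of splicing, showed the largest increase of any member. Its normalized reads were 1559, 1614 and 1733 in DMSO and 3194, 3043 and 2826 in THZ531, without overlap (1.85-fold, log2 fold change 0.88, SE 0.06; limma, Benjamini-Hochberg adjusted p = 1.8e-09). The call held at the same total (0.64) and was lost with RPL34 (0.39). A locus without a symbol lies inside PRPF18 on its strand, between 46551 and 49293 bases from its start, and had 111 ± 6.25 reads in DMSO and 160 ± 43.4 in THZ531. PRPF40B, a WW domain protein, had 721, 893 and 803 in DMSO and 528, 446 and 505 in THZ531 (log2 fold change -0.71, SE 0.10; limma, Benjamini-Hochberg adjusted p = 7.5e-06). PRPF38B had 1038, 987 and 982 in DMSO and 594, 616 and 606 in THZ531 (-0.73, SE 0.07; limma, Benjamini-Hochberg adjusted p = 1.8e-07). Both lay wholly below their controls. PRPF39 (0.52) rose, as did PRPF19 (0.28), the ubiquitin ligase of the spliceosome, from 19037 ± 98.8 to 23146 ± 204 reads. PRPF38A (-0.04) did not pass. The median of the 7 PRPF genes was 0.28, 0.039 at the same total and -0.21 with RPL34. PRPF18 and PRPF40B are each overlapped on the opposite strand by a gene that fell, FRMD4A (-1.16) and FMNL3 (-1.11). The strand setting of the count is not given in the sources used here.

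Within each library, some related members stood further apart in THZ531 than in DMSO. The ratio of PRPF38A to PRPF38B went from 3.14 ± 0.25 to 5.04 ± 0.20, that of HNRNPD to HNRNPDL from 1.49 ± 0.07 to 3.40 ± 0.11, and that of HNRNPU to HNRNPUL1 from 2.80 ± 0.05 to 4.30 ± 0.07. Each range is separate from the other. Not all pairs examined did so, and some moved closer together, also in separate ranges. The ratio of HNRNPA0 to HNRNPA1 went from 0.58 ± 0.03 to 0.77 ± 0.03. That of HNRNPF to HNRNPH1 went from 0.75 ± 0.04 to 0.89 ± 0.01. These pairs were chosen after the values were seen, so no test is given.

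**Figure D5:**
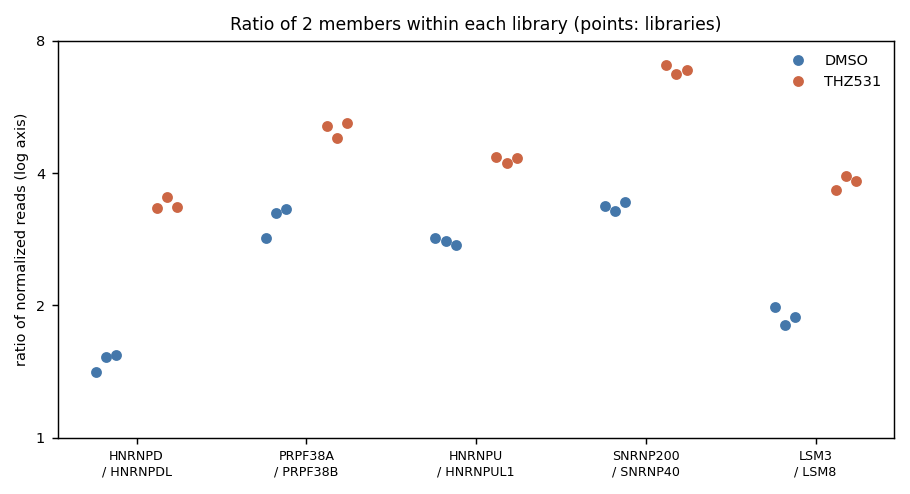
Ratio of the normalized reads of a pair of members within each library, on a log axis, for DMSO (blue) and THZ531 (orange). The 5 pairs drawn were chosen after the values were seen because they moved apart. In all 5 the treated libraries lie above the controls, for instance 3.33 to 3.53 against 1.41 to 1.54 for HNRNPD over HNRNPDL.

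LSM proteins resemble Sm proteins. LSM2 to LSM8 form the nuclear ring on U6 RNA, while LSM1 replaces LSM8 in the cytoplasmic ring that promotes decay of messages. In the nuclear ring LSM3 (0.56), LSM7 (0.55) and LSM4 (0.10) rose and LSM8 (-0.45) and LSM6 (-0.36) fell at an adjusted p up to 0.05, none by 1.5-fold, and LSM2 and LSM5 did not pass. The ring's median was 0.10, -0.14 at the same total and -0.39 with RPL34. LSM3 lies within the span of SLC6A6 on the same strand. LSM4, the highest of the ring by mean reads over all 6 libraries, was at 7765 ± 212 and 8341 ± 115, and the ratio of LSM3 to LSM8 went from 1.89 ± 0.09 to 3.81 ± 0.14 in separate ranges. Of the 6 other LSM genes 5 fell at an adjusted p up to 0.05, against 34.1% of all loci, and LSM12 (0.36, 11021 ± 1518 to 14066 ± 124) rose. LSM11, which with LSM10 gives the U7 snRNP of histone messages its own ring, had 711, 768 and 711 normalized reads in DMSO and 462, 493 and 431 in THZ531 (log2 fold change -0.66, SE 0.09; limma, Benjamini-Hochberg adjusted p = 4.8e-06). LSM10 had 1784, 1856 and 1795 in DMSO and 1203, 1213 and 1272 in THZ531 (-0.56), under the threshold of 1.5-fold. Both were thus lower in every treated library. LSM14B (-0.48), LSM14A (-0.29) and LSM1 (-0.13), which act on cytoplasmic messages, fell by less. The median of the 6 genes was -0.39, and -0.63 and -0.88 under the same-total and RPL34 scalings.

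Each alternative scaling lowers the treated libraries, so that it can add to a decrease but can only reduce an increase. HNRNPDL, PRPF38B, PRPF40B, SNRNP40 and LSM11 were called lower under the deposited, upper-quartile, same-total and RPL34 scalings and in edgeR and DESeq2. DESeq2 did not call U2AF1, and each higher call was lost under at least 1 of these scalings. Members named beyond the 9 called ones and the highest of each role were chosen after their values were seen.

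Gene size showed little relation to the change. Over the 76 members Spearman's rho with the log2 fold change was 0.02 for the span of the locus, and over the 75 with a GENCODE v44 structure it was 0.03 for the number of exons and 0.12 for the longest intron. Over all loci with a structure the values were -0.05, -0.01 and -0.06. The median span was 16156.5 bases for members and 21911.5 bases for all loci. With the mean level rho was 0.29 in members and 0.30 in all loci. These describe genes, which are not replicates, and all share the same 6 libraries. Besides the one in PRPF18, unnamed loci on the same strand passed the minimum inside HNRNPC (8.14 ± 4.53 reads in DMSO, 25.2 ± 10.5 in THZ531, from 529 to 1572 bases past the start) and HNRNPM (34.1 ± 17.1 and 61.3 ± 3.84). The locus inside HNRNPC passed the minimum only through its THZ531 libraries, so no test is given for it. Those in PRPF18 and HNRNPM rose at a Benjamini-Hochberg adjusted p up to 0.05 (limma), as did 34.6% of all loci. In PRPF18 the groups overlap, at 104 to 116 reads in DMSO and 115 to 201 in THZ531.

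Other genes of the spliceosome and of snRNP assembly, a list of 97, were measured in the same fit. All 93 found as loci of their own passed the minimum, and 9 were called higher (9.68%, against 15.7% of all loci) and 6 lower (6.45%, against 23.9%). At an adjusted p up to 0.05 (limma) and any fold, 49 were higher (52.7%, against 34.6% of all loci) and 26 lower (28%, against 34.1%). Among the loci with a mean of at least 1000 these shares were 55.1% higher and 28% lower. The median log2 fold change of the 93 genes was 0.16, and -0.085 and -0.34 under the same-total and RPL34 scalings. The calls became 0 higher (against 9.38% of all loci) and 15 lower (16.1%, against 32%) at the same total. With RPL34 they became 0 higher (against 6.14%) and 30 lower (32.3%, against 42.8%). The largest increases were those of CDC5L (0.77; 5191 ± 126 to 8837 ± 178 reads) and CDC40 (0.72), which act in the catalytic stage, and LUC7L3 (0.67), a U1-associated factor. The largest decrease was that of WBP4, a tri-snRNP-associated factor, from 397 ± 36.9 to 135 ± 18.3 reads (-1.55). GEMIN8 (-0.98) and GEMIN7 (-0.84) followed, and GEMIN6 (-0.81), GEMIN2 (-0.66) and PHF5A (-0.59), chosen after their values were seen, completed the lower calls. The GEMIN proteins belong to the SMN complex, which loads the Sm ring onto snRNA, and their genes did not all move one way. GEMIN4 (-0.25) fell and GEMIN5 (0.18) and the complex's partner STRAP (0.42) rose at an adjusted p up to 0.05 without reaching 1.5-fold. GEMIN5 was at -0.067 and STRAP at 0.18 at the same total, and at -0.32 and -0.069 with RPL34. Of the drug's targets, CDK12 rose from 6762 ± 105 to 8835 ± 357 reads (0.39, but -0.11 with RPL34), and CDK13 was at 3918 ± 149 and 3863 ± 44.8 (-0.02).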

How the data were processed

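RNA-seq of OVCAR3 cells given DMSO (3 libraries) or 200 nM THZ531 for 6 h (3 libraries) was analysed. The authors prepared stranded polyA libraries, mapped 150 bp paired reads to hg38 with STAR (2.7.5a in the submitters' processing notes, another version in the methods), counted them on FAST DB genes with featureCounts and deposited a table of DESeq2-normalized values, a signal that is never negative: reads divided by a size factor per library, not corrected for length. Because 100% of these values were whole multiples of 1 step per library (tolerance 0.02 reads), reads were recovered. They numbered 53054048 to 70986130 per library.

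Values were compared on the log2(value + 1) scale, which understates changes of low loci, with limma 3.58.1 (trended variance, no covariates, R 4.3.3) over the 17568 loci that reached 10 in 3 or more libraries. A call needed a 1.5-fold change or more with p up to 0.05 before adjustment, and the Benjamini-Hochberg adjustment ran over all 17568 loci. Alternatives were edgeR 4.0.16 and DESeq2 1.42.0 on the recovered reads, other scalings, pseudocounts and minimums, a replicate block and leaving out each library. The fits were tested on simulated data. Structures came from GENCODE v44 and promoters from RefSeq. The strand of an unnamed locus was taken from its neighbours in the table's identifier order, which gave the annotated strand for 98.9% of 23059 annotated loci.

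Names ending in P and a number were dropped as pseudogenes, while SNRNP genes such as SNRNP70 were kept. The values of 1 member are not reported here, though it is counted. Members, roles and lists were chosen with earlier results of these data known. The named genes were all called members, the member with the most reads in each role, the 3 largest calls in each direction of the other list, CDK12 and CDK13.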

Additional observations from a re-analysis of the deposited data

How the results depend on the processing

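The calls and the median of the members moved with the scaling. At the same total the members called were 1 higher (1.32%) and 11 lower (14.5%), with a median log2 fold change of -0.023. With RPL34 they were 0 higher and 17 lower (22.4%), with a median of -0.27. Other spliceosome genes gave 0 higher and 15 lower (16.1%) at the same total, and 0 and 30 (32.3%) with RPL34. Of all loci, 32% and 42.8% were called lower at these scalings, and 9.38% and 6.14% higher. Named genes that changed sign with RPL34 were CDK12 (-0.11), HNRNPC (-0.46), HNRNPH1 (-0.28), HNRNPK (-0.086), LSM12 (-0.13), LSM4 (-0.39), PRPF19 (-0.21), PRPF31 (-0.46), SF3B2 (-0.20), SNRNP25 (-0.42), SNRNP70 (-0.19) and SNRPD3 (-0.15), and at the same total HNRNPC (-0.21), HNRNPH1 (-0.027), LSM4 (-0.14), PRPF31 (-0.21) and SNRNP25 (-0.16). These follow from the shift that each scaling applies to every locus. With 1 library left out, the members called were 2 to 4 higher and 5 to 6 lower, the median was 0.17 (without DMSO replicate 1) to 0.24, and HNRNPC ranged from -0.011 (without DMSO replicate 1) to 0.070 (without DMSO replicate 3). The other genes then gave 7 to 11 higher and 6 to 7 lower. Shares of all loci with 1 library left out are not given here, so these counts are not set against them.

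The other alternatives (pseudocounts of 0.1 and 10, no minimum, a minimum of 50, upper-quartile scaling, the adjusted p, edgeR, DESeq2) kept these counts within 1.5 times. Members called were 2 higher and 6 lower in edgeR and 3 and 5 in DESeq2. The counts of these settings, and of those that follow, are not set against shares of all loci. Summing U2AF1 and U2AF1L5, chosen after seeing the data, left 3 higher and 5 lower. Same-numbered libraries did not deviate together (r of 0.00, 0.02 and -0.04 over 17568 loci). That cannot show whether same-numbered cultures were set up together. With the replicate number as a block the calls stayed at 3 higher and 6 lower members and 9 and 6 other genes. The members' median was then 0.22. The members under the minimum had at most 2 reads in a library, and the cause was not tested.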
